A study of Mus musculus with 6 samples.

Results

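The homeobox genes described here are 7 Hox genes, Hoxb5, Hoxb4, Hoxb3, Hoxb2, Hoxa9, Hoxa7 and Hoxa5, together with Meis1 and Hhex, 9 of the 17711 genes that the array's annotation names by 1 symbol. They were listed by name with earlier results of this comparison in view, so their differences between genotypes are given as a description, with no test. Every probe annotated to them was taken, 16 in all, of which 13 passed a detection filter (a detection p below 0.05, called above background here, in 3 or more of the 6 arrays), and each of the 9 genes kept at least 1 probe. No Pbx gene was on the list although Pbx proteins belong to the same pathway, and the Pbx genes are described further on with the other cofactors.

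The cells were megakaryocyte progenitors, the precursors of the platelet-producing megakaryocytes, sorted from the bone marrow of mice aged 3 to 4 months on a mixed 129SVxC57Bl/6 background and lysed for RNA straight after sorting. One group was Scl fl/fl, with Scl described as completely excised (called Scl-deleted below), and the other was Scl wt/wt, and all animals of both groups carried the Cre transgene TgPf4-Cre, which the Pf4 promoter drives in the megakaryocyte lineage. Scl, also named Tal1, is a basic helix-loop-helix factor needed to form blood cells. There were 3 arrays of each genotype, with no statement in the labels that the 3 came from separate animals or pools. A p-value here therefore covers only how far these samples lie apart, and that may be technical.

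Hox proteins are transcription factors that bind DNA through a homeodomain. Their genes lie in 4 clusters, and within a cluster their order follows the order of paralog groups. In blood, HoxA and HoxB genes are active in stem and early progenitor cells and are turned down as cells mature. Meis1 and the Pbx proteins, of the TALE class of homeodomain proteins, bind DNA together with Hox proteins, and mice without Meis1 fail to make megakaryocytes. Hhex is a homeodomain factor outside the clusters that is needed in early blood and endothelial development.

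Tal1 itself had a log2 signal of 11.21, 9.85 and 11.45 on the Scl-deleted arrays, against 12.82, 13.27 and 13.29 on the wild-type arrays, so the groups did not overlap, yet signal stayed far above background. The sources used here do not place its probe inside or outside the excised part. Of 12 megakaryocyte markers with a probe, 11 were above background on all 6 arrays, and all probed T cell and monocyte markers (3 of 3 in each list) were at background throughout; 7 of 9 neutrophil markers and 5 of 7 erythroid markers were above background on all 6, as were 3 of 5 B cell and 2 of 5 mast cell and basophil markers. The arrays also differed in ways that genotype does not label. Before normalization wild-type arrays 1 and 2 had the highest medians, at 6.65 and 6.62 (log2), against 6.43 to 6.46 on the other 4 arrays, and they correlated more closely with each other (Pearson r = 0.995 over all probes) than any other pair. Xist, the X-inactivation RNA of female cells, was 6.66, 6.95 and 10.55 on Scl-deleted arrays 1, 2 and 3, against 10.55, 10.90 and 9.25 on the wild-type arrays, so Scl-deleted arrays 1 and 2 stood apart. Eif2s3y, a gene of the Y chromosome, was above background on all 6 arrays, at 8.67, 8.39 and 7.97 on the Scl-deleted arrays, against 7.37, 7.64 and 8.22 on the wild-type arrays. Whether the samples differ in sex or are mixed was not tested. Member values are also given with the Xist level as a covariate and against wild-type array 3 alone.

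Most Hox genes gave no signal. Of the 37 Hox genes with a probe, 22 were not above background on any array and 12 kept a probe. These 12 were 10 of 16 HoxA and HoxB genes of paralog groups 1 to 9, 0 of 3 of groups 10 to 13, and 2 of 18 HoxC and HoxD genes. The members account for 7 of the 12, and the other 5 were Hoxa4, Hoxb1, Hoxb7, Hoxc8 and Hoxd11. Signal was thus found mainly in the low and middle paralog groups of the HoxA and HoxB clusters. Hoxb1, Hoxb2, Hoxb4, Hoxb5, Hoxa5, Hoxa7 and Hoxc8 were above background on all 6 arrays, in both genotypes.

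**Figure D1:**
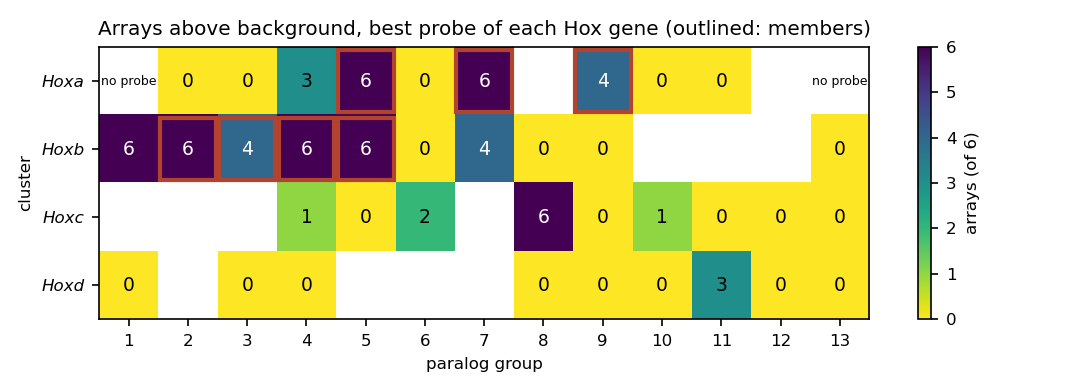
Number of the 6 arrays (colour and figure in each cell) on which the best probe of each Hox gene lay above background, by cluster (rows) and paralog group (columns). Outlined cells are the 7 Hox members; blank cells have no gene, and 22 genes are at 0, most of them in the HoxC and HoxD rows and at the high-numbered end.

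RefSeq's promoter table (GRCm38.p6) held 6 of the 9 members. The 250 bases before the start of Hoxa5, Hoxa7 and Hoxb4 are shown, on the strand of the gene, because Hoxa5 and Hoxa7 are the HoxA members that were both lowest on the same array in the values below, while Hoxb4 is the HoxB member with an entry and stayed nearly level. Hoxa5 is shown for chr6:52204588-52204837 and Hoxa7 for chr6:52218574-52218823, both on the minus strand, and Hoxb4 for chr11:96318017-96318266 on the plus strand. Capitals mark CAGNTG, the E-box class to which SCL and its partners bind, found on either strand.
Hoxa5: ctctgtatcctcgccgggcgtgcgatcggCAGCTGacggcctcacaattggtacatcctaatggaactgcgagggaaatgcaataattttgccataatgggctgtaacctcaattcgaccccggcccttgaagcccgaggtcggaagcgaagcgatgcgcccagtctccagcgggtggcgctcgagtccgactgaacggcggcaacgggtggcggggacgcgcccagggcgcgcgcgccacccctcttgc
Hoxa7: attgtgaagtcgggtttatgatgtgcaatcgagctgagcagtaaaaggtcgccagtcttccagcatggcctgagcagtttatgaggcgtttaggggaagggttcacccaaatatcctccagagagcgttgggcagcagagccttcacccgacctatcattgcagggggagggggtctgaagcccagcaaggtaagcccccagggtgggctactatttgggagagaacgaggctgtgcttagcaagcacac
Hoxb4: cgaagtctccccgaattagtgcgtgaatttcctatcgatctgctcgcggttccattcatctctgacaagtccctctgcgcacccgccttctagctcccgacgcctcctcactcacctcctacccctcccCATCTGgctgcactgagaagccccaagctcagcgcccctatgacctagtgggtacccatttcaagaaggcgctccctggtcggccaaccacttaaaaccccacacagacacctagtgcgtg

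Hoxa5 and Hoxb4 each held 1 such E-box, and Hoxa7, Hoxa9, Meis1 and Hhex held 0, so 2 of 6 member windows had the motif against 44.8% of all 32851 promoter windows of that length. None of the 6 held the GATA motif AGATAA (9.99% of all windows), the Meis motif TGACAG (15.9%) or the Pbx-Hox motif TGATTNAT (2.82%), searched on both strands. An absent motif says only that these letters are not in this window.

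With the brightest kept probe standing for each gene, 8 of the 9 members had a mean that was lower in Scl-deleted than in wild-type cells. The median of the 9 differences of means, Scl-deleted minus wild-type, was -0.31 on the log2 scale, and over all 8946 tested genes the median was 0.02, with 45.6% of genes lower. The differences ran from -0.59 for Hoxb5, which is 1.5-fold lower, to 0.09 for Hoxb3. In 3 of the 9, Hoxb5, Hoxa7 and Hoxa5, every Scl-deleted array lay below every wild-type array, against 8.32% of all tested genes (19.6% with no overlap in either direction). Nothing is read from these shares, because the list was chosen on this comparison. In bulk RNA, fewer cells that express a gene and less RNA per cell cannot be told apart.

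**Figure D2:**
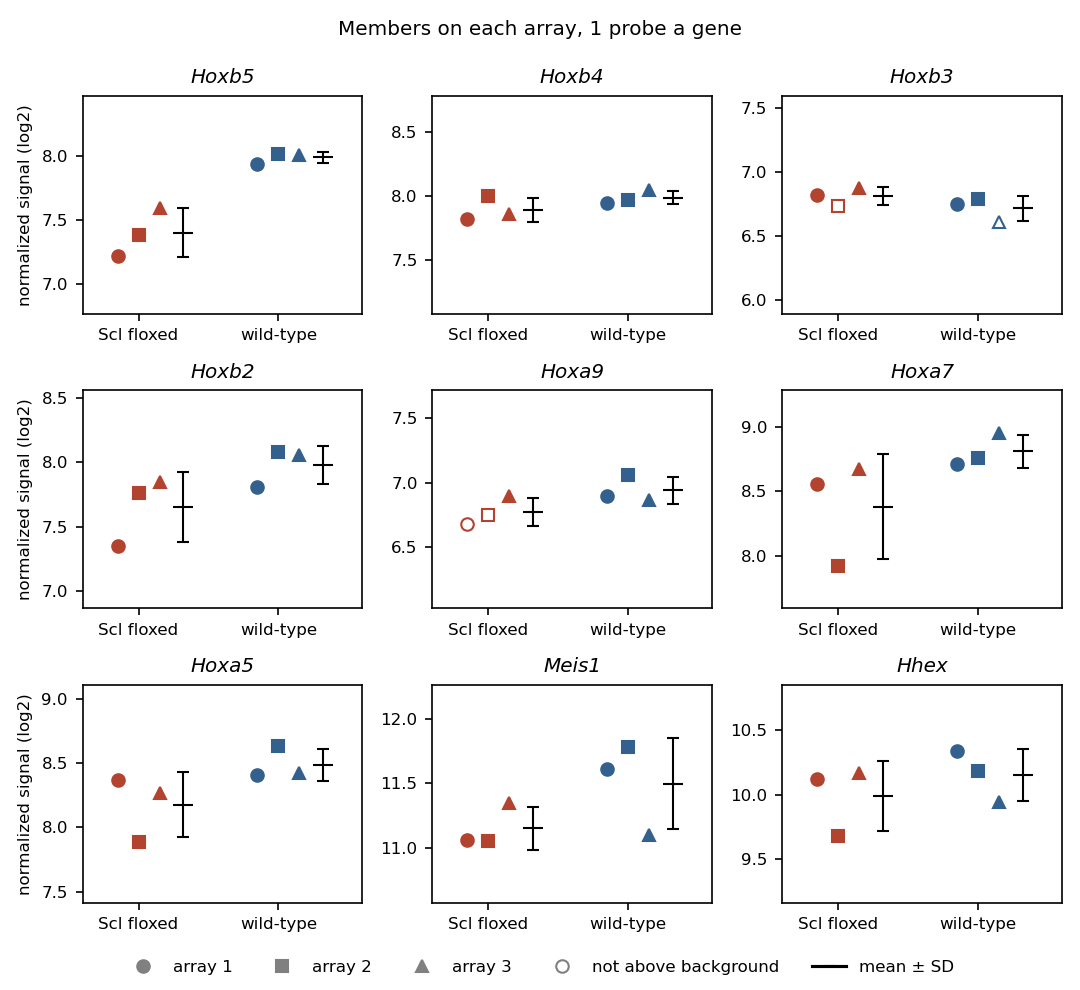
Normalized log2 signal of the probe that stands for each member on each array, Scl-deleted arrays (red) left of wild-type arrays (blue); symbols give the array number, open symbols a signal not above background, and bars the mean ± SD of 3 arrays. All panels span the same log2 range but at different levels. The groups are separate for Hoxb5, Hoxa7 and Hoxa5 and overlap for the other 6.

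The HoxB members differed most among themselves. Hoxb5, whose expression marks long-term blood stem cells in mice, had log2 signals of 7.22, 7.39 and 7.60 on the Scl-deleted arrays, against 7.94, 8.02 and 8.01 on the wild-type arrays. All 3 Scl-deleted arrays were low, and the wild-type arrays lay within a narrow band. Its means were 7.40 ± 0.19 in Scl-deleted cells and 7.99 ± 0.04 in wild-type cells (SD, n = 3 each), a difference of -0.59 ± 0.11 (SE).

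Hoxb2, an anterior HoxB gene, had 7.35, 7.76 and 7.85 in Scl-deleted cells, against 7.81, 8.08 and 8.06 in wild-type cells. Scl-deleted array 1 was far below the rest, while Scl-deleted array 3 lay just above wild-type array 1, so the groups overlapped. The difference was -0.33 ± 0.18 (SE), and without Scl-deleted array 1 it was -0.18.

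Hoxb4, best known for expanding blood stem cells when it is overexpressed, had 7.82, 8.002 and 7.87 in Scl-deleted cells, against 7.95, 7.97 and 8.05 in wild-type cells. The groups overlapped, and the difference was -0.09 ± 0.06 (SE). Hoxb4 thus lay nearly level between genotypes, although it neighbours Hoxb5, which was lower on every Scl-deleted array.

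Hoxb3 was the only member with a higher mean in Scl-deleted cells. Its brighter probe had 6.82, 6.74 and 6.88 there, against 6.75, 6.79 and 6.61 in wild-type cells, and was above background on 2 of 3 arrays of each group. With a difference of 0.09 ± 0.07 (SE) and overlapping groups near background, no direction can be read for Hoxb3: the sign turned to -0.02 in the signals that were not normalized. Its other probe was not above background on any array.

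Among the HoxA members, Hoxa7 and Hoxa5 were both lowest on Scl-deleted array 2. Hoxa7, a HoxA gene that is kept active in leukaemias driven by MLL fusions, had 8.55, 7.92 and 8.68 in Scl-deleted cells, against 8.72, 8.76 and 8.96 in wild-type cells. The groups did not overlap, but Scl-deleted array 2 was far below the others and Scl-deleted array 3 came close to wild-type array 1. A second probe for Hoxa7 gave 8.62, 7.85 and 8.48, against 8.86, 8.73 and 8.80, again with Scl-deleted array 2 lowest and no overlap. The differences were -0.43 ± 0.25 and -0.48 ± 0.24 (SE) for the 2 probes, and that of the first was -0.20 without Scl-deleted array 2.

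Hoxa5, the next member along the cluster, had 8.37, 7.89 and 8.27 in Scl-deleted cells, against 8.41, 8.63 and 8.42 in wild-type cells. Scl-deleted array 2 was again the lowest, and Scl-deleted array 1 nearly reached the wild-type arrays. The difference was -0.31 ± 0.16 (SE), and -0.17 without Scl-deleted array 2.

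Hoxa9, which with Meis1 forms the pair known to drive myeloid leukaemia in mice, was near background. Its brightest probe had 6.68, 6.74 and 6.89 in Scl-deleted cells, where 1 of 3 arrays was above background, against 6.89, 7.06 and 6.87 in wild-type cells, where all 3 were. The difference was -0.17 ± 0.09 (SE) with overlapping groups, and -0.05 once the Xist level entered as a covariate. The other probes of Hoxa9 were above background on 2 and 0 of the 6 arrays and give no usable level.

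Meis1, the cofactor gene needed to make megakaryocytes, had 4 probes above background on all 6 arrays, and they did not move alike. The brightest had 11.06, 11.05 and 11.34 in Scl-deleted cells, against 11.61, 11.78 and 11.10 in wild-type cells. Wild-type arrays 1 and 2 were high, while wild-type array 3 lay among the Scl-deleted arrays, so the groups overlapped.

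The difference of that Meis1 probe was -0.35 ± 0.23 (SE). It was -0.55 without wild-type array 3, -0.08 with Xist as a covariate, and turned to 0.05 against wild-type array 3 alone. A second probe had 10.60, 9.40 and 10.47, against 11.01, 10.72 and 10.29, a difference of -0.51 ± 0.43 (SE) that rests on Scl-deleted array 2. The dimmest probe was the only one whose groups did not overlap, at 7.17, 6.92 and 7.13, against 7.55, 7.53 and 7.18, a difference of -0.35 ± 0.14 (SE). The remaining probe had a higher mean in Scl-deleted cells, at 7.63, 7.01 and 7.46, against 7.12, 7.12 and 7.26, a difference of 0.20 ± 0.19 (SE). The annotation ties the 4 probes to 4 different transcript records, and which transcripts each detects was not tested.

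Hhex, the homeodomain factor outside the clusters, had 10.12, 9.67 and 10.17 in Scl-deleted cells, against 10.34, 10.18 and 9.94 in wild-type cells. Scl-deleted array 2 was the lowest, and the other Scl-deleted arrays lay among the wild-type arrays. The difference was -0.17 ± 0.19 (SE), smaller than its error. It was -0.01 without Scl-deleted array 2, 0.01 with the Xist level as a covariate and 0.05 against wild-type array 3 alone.

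**Figure D3:**
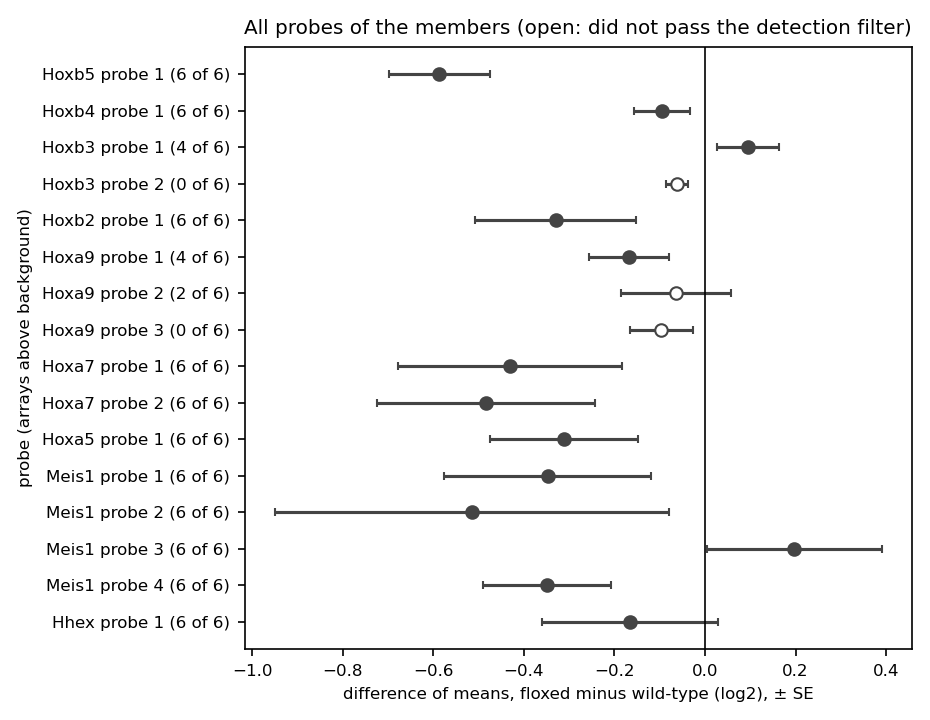
Difference of means, Scl-deleted minus wild-type (log2), with its SE, for each of the 16 probes of the members, numbered within a gene from bright to dim; the label gives the arrays above background and open symbols did not pass the detection filter. Of the 13 filled points 11 lie left of 0, and those right of 0 are Hoxb3 probe 1 and Meis1 probe 3.

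The members did not share 1 pattern across the arrays. After each member's mean over the 6 arrays was subtracted, the HoxB members averaged -0.25, -0.08 and -0.01 on Scl-deleted arrays 1, 2 and 3, against 0.06, 0.16 and 0.12 on the wild-type arrays. The HoxA members averaged -0.06, -0.41 and 0.02 on the Scl-deleted arrays, against 0.08, 0.22 and 0.15 on the wild-type arrays. Array 1 was the lowest Scl-deleted array for the HoxB mean and array 2 for the HoxA mean.

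Once group means were removed, so that genotype no longer entered, Hoxa5 and Hoxa7 correlated at Pearson r = 0.76 over the 6 arrays and Hoxb5 and Hoxb2 at 0.89. Pairs within a cluster were not always alike: Hoxb4 and Hoxb3 were at -0.75 and Hoxa9 and Hoxa7 at 0.15. Across clusters Hoxb5 was at 0.77 with Hoxa9 and at -0.06 with Hoxa5, and Hoxb4 and Hhex were at -0.95. With 6 arrays that share each hybridisation among all genes, these values describe the arrays and carry no p.

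**Figure D4:**
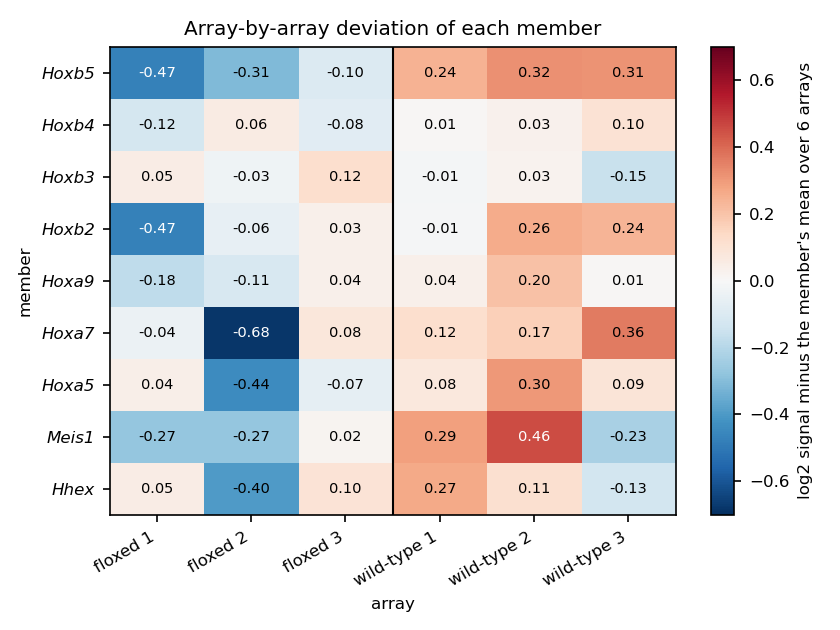
Log2 signal of each member on each array minus that member's mean over the 6 arrays (red above, blue below; Scl-deleted arrays left of the line, wild-type arrays right). The low cells lie on Scl-deleted array 1 for Hoxb5 and Hoxb2 and on Scl-deleted array 2 for Hoxa7, Hoxa5 and Hhex, while Scl-deleted array 3 is near 0 for most members.

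Taken as 1 mean, the 9 members stood at -0.16, -0.25 and 0.02 on Scl-deleted arrays 1, 2 and 3, against 0.11, 0.21 and 0.07 on the wild-type arrays. The Scl-deleted array whose members lay closest to wild type, array 3, was also the Scl-deleted array with high Xist. With the Xist level as a covariate the median of the 9 differences was -0.13. Among the Scl-deleted arrays Tal1 had the order of the member mean, at 11.21, 9.85 and 11.45 on arrays 1, 2 and 3. Among the wild-type arrays it did not. There Tal1 was 12.82, 13.27 and 13.29, highest on array 3, where the member mean was lowest. The stem and early progenitor markers had the same order among the Scl-deleted arrays, where their median deviation was -0.30, -0.37 and -0.03 on arrays 1, 2 and 3, against 0.19, 0.32 and 0.25 on the wild-type arrays. Of 7 such markers tested, 6 were lower. In 5 of them there was no overlap, against 8.32% of all tested genes with every Scl-deleted array below. At an unadjusted p under 0.05 there were 5, against 17.2% of all tested genes. Nothing is read from such shares, because the marker lists too were chosen with earlier results of these data known. Kit was higher, with a difference of 0.19, and Mecom was nearly level at -0.06. In limma's fit 1 passed (Esam, an adhesion molecule of stem cells and platelets, difference -0.86, adjusted p = 0.00850), against 0.458% of all tested genes called lower. Slamf1, a surface receptor of stem cells, had -1.40 and did not pass (limma adjusted p = 0.0541), and the summed linear signal of the 7 was 5325 to 6921 in Scl-deleted cells and 7440 to 8192 in wild-type cells. Flt3, Hlf, Procr, Thy1 and Mycn of that list were at background on every array. The 7 tested neutrophil markers were all lower, with a median difference of -0.61 and 0 called by limma, against 1.39% of all tested genes (3 at an unadjusted p under 0.05), and summed signals of 5425 to 6637 in Scl-deleted cells and 5687 to 10740 in wild-type cells. Of 5 erythroid markers tested 3 were lower, with a median of -0.06. In 2 of the 5 every Scl-deleted array lay below every wild-type array, against 8.32% of all tested genes. Car2, a carbonic anhydrase gene, passed (difference -0.92, limma adjusted p = 0.0416), against 0.458% of all tested genes called lower. The 2 tested mast cell and basophil markers, Cpa3 and Fcer1a, had 0.68 and 0.51 with 0 called by limma (1 at an unadjusted p under 0.05), while Gzmb, Mcpt8 and Ms4a2 were at background on every array. Their summed signals were 288.8 to 720.8 in Scl-deleted cells and 273.3 to 337.3 in wild-type cells. Of 11 megakaryocyte markers tested 5 were lower, with a median of 0.00 and differences from -0.50 for Ppbp to 1.11 for Itga2b. Limma called 0 of them and 5 were at an unadjusted p under 0.05, against 1.39% and 17.2% of all tested genes. The 3 tested B cell markers had a median of 0.07, with 0 lower and 0 called by limma (1 at an unadjusted p under 0.05). The 2 tested endothelium and stroma markers, Kdr and Pdgfrb, had -0.10 and 0.11, with 0 called by limma. The part of these cell types in the member values was not tested, nor was that of the remaining Tal1 signal. The part of the arrays' Xist level was not tested either. Xist was low only on Scl-deleted arrays 1 and 2, so the covariate cannot tell its level apart from genotype.

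Among the cofactors, no Pbx or other TALE gene outside the list of members passed the test. Of 11 genes listed, 7 were tested, 2 were lower and 5 higher in Scl-deleted cells, and 0 passed limma's adjusted p of 0.05 (2 at an unadjusted p under 0.05), against 1.39% of all tested genes called and 17.2% at that unadjusted p; the median difference was 0.22. Pbx2, a partner of Hox and Meis proteins, had 8.86, 8.96 and 8.84 in Scl-deleted cells, against 8.32, 8.24 and 8.84 in wild-type cells. Wild-type array 3 was as high as the Scl-deleted arrays, so the groups overlapped.

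For Pbx2 a dimmer kept probe had a difference of 0.16 ± 0.14 (SE of the difference of 2 means), with overlapping groups. The mean of its kept probes gave 0.29 (limma adjusted p = 0.316). The difference of the brighter probe, whose signals are given above, was 0.42 ± 0.15 (SE from limma, adjusted p = 0.219). Leaving out wild-type array 3 gave 0.61 (limma adjusted p = 0.00684, the range over all alternatives being 0.00684 to 0.998). Pknox1, which encodes the related cofactor Prep1, showed the same split: it had 9.13, 9.31 and 9.09 in Scl-deleted cells, against 8.85, 8.55 and 9.25 in wild-type cells. Its difference was 0.29 ± 0.17 (SE from limma, adjusted p = 0.406), and leaving out wild-type array 3 gave 0.48 (limma adjusted p = 0.0385, the range over all alternatives being 0.0385 to 0.998), whereas against wild-type array 3 alone it was -0.08.

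Pbxip1, which encodes a protein that binds Pbx and keeps it from DNA, had 7.69, 7.81 and 7.24 in Scl-deleted cells, against 7.04, 7.08 and 7.05 in wild-type cells. All Scl-deleted arrays were above all wild-type arrays, by little on array 3. The difference was 0.52 ± 0.14 (SE from limma) and did not pass (adjusted p = 0.124), though it did without Scl-deleted array 3, at 0.69 (limma adjusted p = 0.0309, the range over all alternatives being 0.0309 to 0.775). Pbx3 had 6.93, 6.87 and 7.02 in Scl-deleted cells, against 7.06, 7.22 and 7.04 in wild-type cells, a difference of -0.17. Its groups did not overlap, but its signals were near background, and its other probes did not pass the detection filter. Pbx4 had a difference of 0.22 with overlapping groups, and Meis2 and Pknox2 were at background on every array.

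None of the remaining Hox genes passed the test. Of the 5 with a kept probe 2 were lower, and 0 passed limma's threshold (0 at an unadjusted p under 0.05), with a median difference of 0.00. Hoxb1, at the end of the cluster beside Hoxb2, had a difference of -0.08 and Hoxb7 one of 0.06. Hoxa4, next to Hoxa5, had 0.04 and Hoxc8 had 0.00. Hoxd11 was not above background on any Scl-deleted array and was above it on all 3 wild-type arrays, with means of 6.64 and 6.83. It passed the filter only through the wild-type arrays, which favours a lower level in Scl-deleted cells, so no direction is read from it. Between these samples, near background, the wild-type mean was at least 1.07-fold the Scl-deleted mean. The difference did not pass (limma adjusted p = 0.312). As the filter favours that direction, the fold is no support for it. For that fold each Scl-deleted array was set to its dimmest signal above background where the probe lay under it, and the wild-type mean was divided by their mean.

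No regulator of Hox clusters passed the test. MLL complexes, with menin and Psip1, keep Hox genes active, and of 17 such activators 11 were tested, 4 lower and 7 higher, with 0 called by limma (0 at an unadjusted p under 0.05) and a median of 0.10. Psip1 had the smallest p, at 11.09, 10.83 and 11.19 in Scl-deleted cells, against 11.45, 11.44 and 11.08 in wild-type cells, a difference of -0.29 ± 0.14 (SE from limma, adjusted p = 0.316). Men1, which encodes menin, had 0.25 and Ash2l, a core subunit of the complexes, -0.13.

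Polycomb proteins silence Hox clusters. Of 16 listed, 11 were tested, 5 lower and 6 higher, and 0 were called by limma (3 at an unadjusted p under 0.05), against 1.39% and 17.2% of all tested genes, with a median of 0.01. Cbx8, a chromobox subunit of Polycomb complex 1, had 7.28, 7.10 and 7.28 in Scl-deleted cells, against 6.77, 6.76 and 6.83 in wild-type cells. The groups did not overlap, and the difference was 0.43 ± 0.09 (SE from limma, adjusted p = 0.0686, the range over all alternatives being 0.00913 to 0.780), under the threshold in 4 of 16 alternatives.

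Bmi1, a Polycomb gene that sustains blood stem cells, had 6.88, 6.75 and 6.64 in Scl-deleted cells, against 7.56, 7.57 and 6.94 in wild-type cells. The groups did not overlap, but wild-type array 3 came near the Scl-deleted arrays, of which 1 of 3 was above background. The difference was -0.60 ± 0.17 (SE from limma, adjusted p = 0.131), and leaving out wild-type array 3 gave -0.81 (limma adjusted p = 0.00359, the range over all alternatives being 0.00359 to 0.998). With neqc the difference was -1.16 and against wild-type array 3 alone -0.18, so its size is poorly fixed (limma adjusted p = 0.141 and 0.998). Cbx7, another chromobox gene, had -0.25 ± 0.11 (SE from limma, adjusted p = 0.283).

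Of 15 genes known as targets from work on Hoxa9 and Meis1 in mouse blood cells, 10 were tested, 6 were lower and 1 passed, upward, against 0.928% of all tested genes called higher. At an unadjusted p under 0.05 there were 4, against 17.2% of all tested genes. Bcl2, which protects cells from apoptosis, rose to 11.24, 11.30 and 11.27 in Scl-deleted cells, against 10.51, 10.55 and 10.74 in wild-type cells. All 3 Scl-deleted arrays lay in a narrow band above all wild-type arrays.

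The difference of Bcl2 was 0.67 ± 0.10 (SE from limma, adjusted p = 0.0169), 1.59-fold higher. Its other 4 kept probes were also higher, by 0.24 to 0.46, each with no overlap, and with the mean of its probes the call was lost (0.45, adjusted p = 0.0657). The adjusted p of Bcl2 ran from 0.00166 to 0.368 and was under 0.05 in 7 of 17 alternatives. It was 0.0508, 0.0622, 0.0805 and 0.0894 without Scl-deleted array 1 or 2 or wild-type array 1 or 2 in turn.

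Cd34, a surface marker of early progenitors that is also on the stem marker list, had 7.36, 7.03 and 7.55 in Scl-deleted cells, against 7.77, 7.93 and 7.84 in wild-type cells, with no overlap. Its difference was -0.53 ± 0.13 (SE from limma, adjusted p = 0.103), and it was under the threshold in 2 of 16 alternatives, with a range of 0.0298 to 0.726. Cdk6, a cell cycle kinase gene, had -0.48 ± 0.17 (SE from limma, adjusted p = 0.202), and leaving out wild-type array 3 gave -0.64 (limma adjusted p = 0.0229, the range over all alternatives being 0.0198 to 0.998). The median of the 10 targets was -0.04.

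The genes that flank the clusters were compared to see whether the regions around them moved. Of the nearest 2 tested genes on each side of the HoxA and HoxB clusters, by their order in RefSeq, 4 of 8 were lower and 0 were called by limma (1 at an unadjusted p under 0.05), with a median of 0.02. Ube2z, a ubiquitin-conjugating enzyme gene before the HoxB cluster, had 7.08, 6.82 and 6.81 in Scl-deleted cells, against 7.57, 7.17 and 7.25 in wild-type cells, a difference of -0.43 ± 0.13 (SE from limma, adjusted p = 0.160, the range over all alternatives being 0.0366 to 0.949). The difference was 0.16 for Snx11 and 0.15 for Nfe2l1 on the other side of HoxB. Around HoxA it was 0.09 for Cbx3, -0.06 for Snx10, -0.03 for Hibadh and -0.12 for Tax1bp1, while Atp5g1, next to Ube2z, had 0.07.

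The genes whose levels followed the mean of the 9 members most closely over the 6 arrays, among 8937 others, were Tcf7l2, Col4a1, Mphosph6, Ece1 and Ube2n, with Pearson r of 0.990, 0.989, 0.988, 0.987 and 0.986. Tcf7l2 encodes a transcription factor of the Wnt pathway and Col4a1 a collagen IV chain. Tcf7l2 had 7.36, 7.21 and 7.55 in Scl-deleted cells, against 7.59, 7.74 and 7.60 in wild-type cells, with Scl-deleted array 3 nearest to wild type as for the members. After group means were removed the closest were Prkdc, Oxsr1, Nbr1, Bag1 and Echdc1, with r from 1.00 to 0.994. The 2 lists share no gene, and with 6 arrays and 8937 genes high values of r arise readily, so they only describe these arrays.

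**Figure D5:**
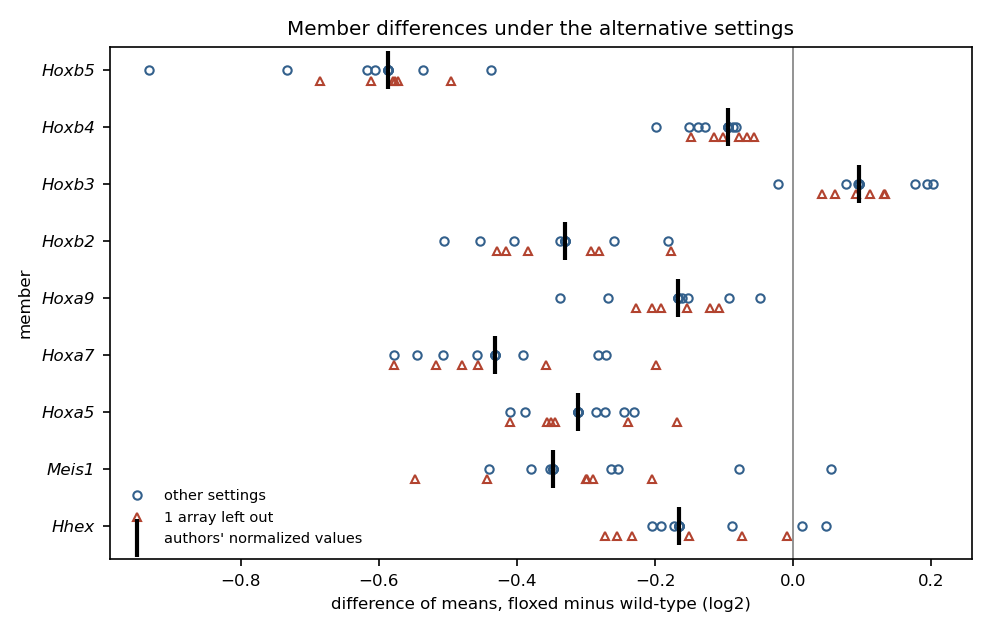
Difference of means of each member, Scl-deleted minus wild-type (log2), with the authors' normalized values (black bars), with 1 array left out (red triangles) and in the other settings (blue circles). Hoxb5 stays between -0.93 and -0.44, whereas Meis1, Hhex and Hoxb3 have points on both sides of 0.

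With the Xist level as a covariate the difference was -0.44 for Hoxb5, -0.13 for Hoxb4, 0.18 for Hoxb3, -0.18 for Hoxb2, -0.27 for Hoxa7 and -0.23 for Hoxa5. Against wild-type array 3 alone it was -0.61 for Hoxb5, -0.15 for Hoxb4, 0.20 for Hoxb3, -0.40 for Hoxb2, -0.09 for Hoxa9, -0.58 for Hoxa7 and -0.25 for Hoxa5. Over the alternatives 6 of the 9 members kept a negative difference throughout. The difference of Hoxb5 ran from -0.93 with neqc, a background correction that widens the differences of dim probes, to -0.44 with the Xist level as a covariate. Hoxb2, Hoxa7 and Hoxa5 were negative in all 17 settings, at -0.51 to -0.18, -0.58 to -0.20 and -0.41 to -0.17. Hoxb4 was negative in all 17 too, at -0.20 to -0.06, and Hoxa9 in all 16 in which it was tested, at -0.34 to -0.05.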

How the data were processed

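Per the labels, amplified and biotin-labelled RNA of 6 samples was measured on mouse bead arrays made by Illumina. The authors deposited log2 signals with no scaling between arrays, each with a detection score that rises with the signal although its header names a p-value, so it was subtracted from 1 to give a detection p. A second table deposited by the authors has log2 values whose distribution is identical on all arrays, which differ by at most 0.0865 from a quantile normalization of the first table done here. The submitters' processing notes name limma; no other step is stated there. Such scaling removes any shift shared by most genes, and without background correction the differences of dim probes are understated.

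The normalized values were used here because the list of members was defined on them. Of 46632 probes 29976 have 1 gene symbol, and 16122 were kept. The brightest kept probe stood for each of 8946 genes. Groups were compared with limma 3.58.1 in R 4.3.3 (lmFit, eBayes, two-sided, Benjamini-Hochberg over all tested genes, threshold 0.05), tested first on simulated data. The number of arrays limits the precision. The members and lists were chosen with earlier results of these data known, so nothing is read from the shares set beside their counts. Genes named outside the members were all other kept Hox and flanking genes and, per list, called genes or the 3 with the smallest p. Cell type markers were summarised by list. For the members, SE is that of the difference of 2 means. Chips and scan dates are not known, so no batch was fitted.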

Additional observations from a re-analysis of the deposited data

How the results depend on the processing

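The number of genes called was 124 and depended on the settings: 48 with signals that were not normalized, 13 with median scaling, 1245 with array weights, 9 with the Xist level as a covariate and, chosen after seeing the data, 34 with wild-type array 3 alone as the wild type, where the lone array is assumed to vary like the others. With 1 array left out it ran from 23 to 1074, the highest without wild-type array 3 and the lowest without wild-type array 2. Replicate numbers are shared between the groups. Same-numbered arrays correlated at 0.0763, -0.319 and -0.215 after group means were removed, and no array correlated best with its own number. These values show no pairing by number, but 3 arrays a group cannot exclude one. With the replicate number as a block 19 genes were called. Of the genes in the other lists 1 was called, against 2 with neqc, 2 with a trend and robust prior, 11 with array weights, 0 with signals that were not normalized, median scaling, the replicate block, probe means per gene, the Xist level as a covariate or wild-type array 3 alone, and 0 to 10 with 1 array left out. The median of the 9 member differences, -0.31, became -0.13 once the Xist level entered as a covariate, -0.15 against wild-type array 3 alone, and -0.36 to -0.17 with 1 array left out. It was negative in each of these settings. Of 151 single member differences under the alternatives 147 kept their sign, and the 4 others were those of Hoxb3, Meis1 and Hhex given above. Of 467 differences of other named genes 10 lost a call, all of Bcl2, and 18 gained one. The cause of these shifts was not tested. Signals near background limit what can be said of Hoxb3, Hoxa9 and most Hox genes that are no member.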

Other observations

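Homeobox genes of blood cells outside the Hox clusters ran both ways in Scl-deleted cells. Of 21 listed, 12 were tested, 7 were higher and 5 lower, 0 passed limma's adjusted p of 0.05 (2 at an unadjusted p under 0.05), and the median difference was 0.09. In 5 of the 12 every Scl-deleted array lay above every wild-type array, against 11.2% of all tested genes. Satb1, a chromatin organiser of lymphoid and stem cells, had log2 signals of 8.21, 8.02 and 8.43 in Scl-deleted cells, against 7.59, 7.39 and 7.76 in wild-type cells. Its difference was 0.64 ± 0.14 (SE, limma adjusted p = 0.0619, with 0.00526 to 0.774 over the alternatives), under the threshold in 2 of 17. Zfhx3, a large zinc finger and homeodomain factor gene, had 8.83, 8.64 and 8.57, against 8.45, 8.19 and 8.30, a difference of 0.36 ± 0.11 (SE, limma adjusted p = 0.156), and its other 2 kept probes were higher by 0.27 and 0.32. Hlx, a homeobox gene of early blood and lymphoid cells, had a difference of 0.29 ± 0.14 (SE, limma adjusted p = 0.323).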
